A study of Mus musculus with 4 samples.

Results

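Genes of the sarcomere, of its Z-disc and of the stretch response were examined in whole mouse hearts. They were chosen as the probes whose platform gene symbol belongs to a set of 37 genes; 33 of these genes had a probe, and 48 of the 25697 probes on the array were theirs. Tnnt2, Flnc, Xirp2 and Smpx had no named probe, so their expression was not analysed here. Their promoter windows entered the counts of sequence elements below. Hearts came from C57Bl6 mice of 8 to 9 weeks in 4 groups. CM-MRKO mice carried floxed alleles of the mineralocorticoid receptor (MR) on both chromosomes together with the MLC2v Cre, and lack the receptor in cardiomyocytes; they received DOC/salt (deoxycorticosterone, an MR agonist, with salt) or vehicle for 8 days. WT mice carried the same floxed alleles without Cre and received the same 2 treatments. All mice had 1 kidney removed. The Cre was therefore present in 1 genotype only, and MLC2v is the ventricular myosin light chain that Myl2, itself among the genes studied, encodes. RNA of 8 hearts was pooled per group and hybridised to 1 Illumina bead array, so the 4 arrays are 4 pools, no difference has a replicate check, and the number of arrays limits the precision. In RNA from whole hearts, fewer cells of a type and less RNA per cell cannot be told apart.

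The sarcomere is the contractile unit of striated muscle. Thick filaments of myosin pull on thin filaments of actin, troponin and tropomyosin; titin spans the unit from its edge, the Z-disc, to its centre, the M-band. The Z-disc anchors the thin filaments and carries proteins that sense load. Ankyrin repeat, LIM-domain and calcineurin-regulating genes are known in heart for their response to stretch and overload, and the fetal isoforms Acta1 and Myh7 are classical genes of cardiac hypertrophy.

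In CM-MRKO hearts none of the 39 probes detected on at least 1 array differed by 1.5-fold between DOC/salt and vehicle, where 1.07% of all detected probes did. Between the DOC/salt pools of the 2 genotypes 1 of 38 probes, for the calcineurin inhibitor gene Rcan1, was at least 1.5-fold higher in CM-MRKO (0.829% of all probes) and 0 were lower (1.14%), where 1.97% of all probes passed in either direction. The WT vehicle pool gave more differences: 8 of 38 probes (13.3% of all probes) in WT DOC/salt against WT vehicle, and 5 of 39 (10.7%) in CM-MRKO vehicle against WT vehicle. Of these, Myoz2 and single probes of Ankrd1, Csrp3 and Myh6 stood low on the WT vehicle array alone. Other probes of Ankrd1, Csrp3 and Myh6 did not share that drop. Acta1, which encodes skeletal alpha-actin, was lower under DOC/salt than under vehicle in both genotypes.

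Promoters are shown for Acta1, Tpm1 and Ankrd1, chosen because the comparisons below turn on them and because they hold one of 3 searched elements. No such element was found in the 250 bases before the starts of Rcan1, Csrp3 or Myoz2, on which comparisons turn as well. Each line gives the 250 bases before an annotated start of the gene, 5′ to 3′ on the gene's own strand, from RefSeq on build GRCm38.p6. For Tpm1 this start, at 67049213, is internal: the gene span begins upstream at 67049672, so its window lies inside the span. For Acta1 and Ankrd1 the start is the edge of the gene span. Capitals mark the M-CAT element CATTCC, known to bind TEAD factors in muscle promoters, the GATA element AGATAA and the TATA box TATAAA, searched on both strands, so that GGAATG and TTATCT are the first 2 read on the other strand.
Acta1 (chr8:123894776-123895025, minus strand): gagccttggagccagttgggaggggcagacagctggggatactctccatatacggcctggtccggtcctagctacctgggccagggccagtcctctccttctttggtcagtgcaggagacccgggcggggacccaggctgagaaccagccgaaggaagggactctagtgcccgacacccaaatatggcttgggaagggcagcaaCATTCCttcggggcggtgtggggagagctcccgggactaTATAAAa
Tpm1 (chr9:67049214-67049463, minus strand): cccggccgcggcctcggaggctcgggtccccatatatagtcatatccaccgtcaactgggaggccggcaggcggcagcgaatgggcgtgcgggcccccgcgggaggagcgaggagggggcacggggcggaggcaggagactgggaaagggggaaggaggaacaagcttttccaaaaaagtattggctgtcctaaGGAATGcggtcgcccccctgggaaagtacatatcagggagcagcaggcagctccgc
Ankrd1 (chr19:36119845-36120094, minus strand): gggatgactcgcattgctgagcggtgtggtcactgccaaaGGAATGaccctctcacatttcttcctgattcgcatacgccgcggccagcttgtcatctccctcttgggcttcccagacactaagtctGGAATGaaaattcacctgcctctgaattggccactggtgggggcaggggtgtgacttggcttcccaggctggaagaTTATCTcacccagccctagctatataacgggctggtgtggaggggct
In these windows Acta1 held 1 M-CAT and 1 TATA box, Tpm1 held 1 M-CAT and Ankrd1 held 2 M-CAT and 1 GATA element. Myh6 and Mybpc2, which also had a called probe, held 1 M-CAT each, 206 and 62 bases before the start used, and are not shown. For both, that start lies inside the gene span. Over windows from 250 bases before to 50 after the start, 14 of the 45 windows of 32 of the genes (31.1%) held an M-CAT, against 14.7% of all 32851 windows. The GATA element was found in 8 of the 45 windows (17.8%) against 11.2% of all, and the TATA box also in 8 against 13.6%; a match of letters is a description and not a binding site.

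Detection was judged against odorant, vomeronasal and taste receptor probes, which are not expected in heart: detection on an array meant that a share under 0.01 of those receptor probes reached the probe's intensity there. Of the 48 probes, 35 were detected on all 4 arrays, 4 on some and 9 on none. In all, 27 genes had a probe detected on every array. The probe of Mybpc2, the fast skeletal myosin-binding protein C, was detected on 3 arrays, with intensities of 123.2 and 131.4 in CM-MRKO under DOC/salt and vehicle, against 113.7 in WT DOC/salt and an undetected 92.2 in WT vehicle. Myh7 (beta myosin heavy chain), Myom2 (an M-band protein), Lmod2 (a thin filament nucleator), Nebl (nebulette) and Ankrd2 were not detected on any array. When a gene has several probes they are numbered by mean intensity, brightest first, since probes differ in affinity and their levels cannot be set against each other. Of the 8 skeletal muscle marker genes, 0 of 11 probes were detected on all 4 arrays and 8 on none. All 6 cardiomyocyte marker genes outside the set had a probe, and 6 of their 8 probes were detected on every array.

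**Figure D1:**
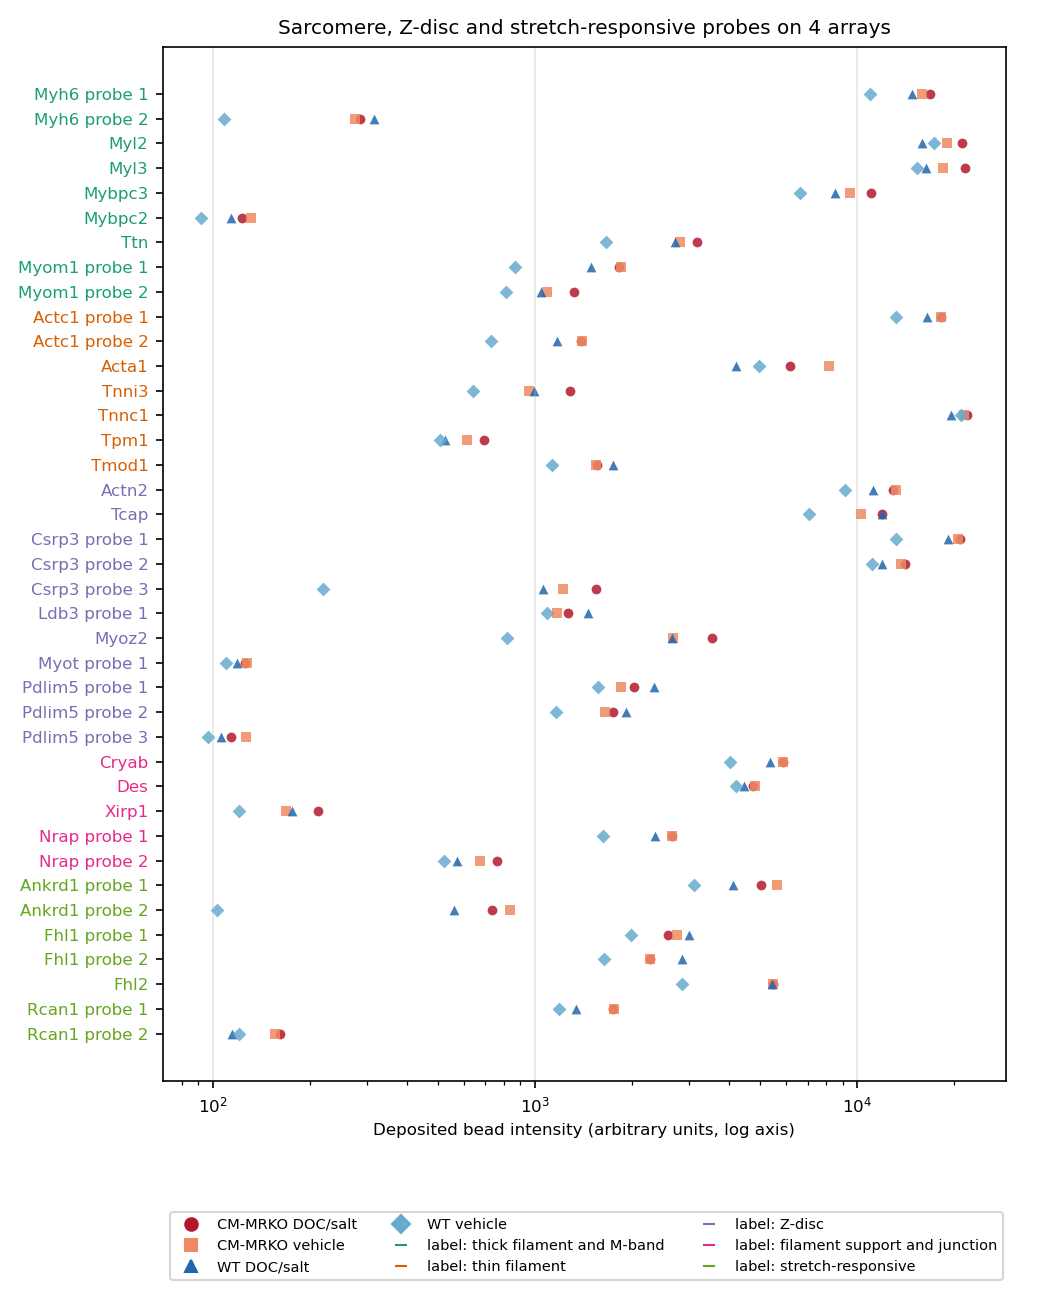
Deposited bead intensity on a log axis for the 39 detected probes, 1 row per probe with row labels coloured by role, and 1 symbol for each of the 4 pooled arrays. WT vehicle (light blue diamonds) lies far left of the other arrays for Ankrd1 probe 2, Csrp3 probe 3, Myoz2 and Myh6 probe 2, whose intensities there were 103.4, 220.0, 819.3 and 108.6.

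The arrays differed as a whole. Median intensities were 102.7 for CM-MRKO DOC/salt, 98.6 for CM-MRKO vehicle, 92.6 for WT DOC/salt and 91.5 for WT vehicle. Over 7219 probes detected on all arrays, Pearson r across probes was 0.993 to 0.995 among the first 3 and 0.974 to 0.977 between each of them and WT vehicle. On the WT vehicle array 4.77% of all detected probes lay at least 1.5-fold below each other array, against 0.0108% to 0.108% on the other 3. Fold changes below are of background-corrected, quantile-normalized values, and intensities are as deposited. The median of all detected probes was -0.04 after normalization in WT DOC/salt minus WT vehicle and in CM-MRKO vehicle minus WT vehicle, but 0.39 and 0.43 on the deposited values. Of the 21 probes of the set below 0 in the WT response after normalization, 17 were above 0 on the deposited values, and of the 18 below 0 in CM-MRKO vehicle minus WT vehicle all 18 were. Negative differences against WT vehicle are therefore relative to the other probes of the arrays.

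Among thick filament and M-band genes, Myh7 and Myom2 were undetected and Mybpc2 was dim. Myh6, the adult alpha myosin heavy chain, had intensities of 16809 under DOC/salt and 15804 under vehicle in CM-MRKO hearts, against 14752 and 10950.1 under the same treatments in WT hearts at its probe 1. After normalization that probe differed by -0.03 on the log2 scale in the CM-MRKO response, 0.00 in the WT response, 0.03 between genotypes under DOC/salt and 0.06 under vehicle. Its probe 2 read 287.2 and 277.1 in CM-MRKO DOC/salt and vehicle, 316.6 in WT DOC/salt and an undetected 108.6 in WT vehicle. Between genotypes under DOC/salt probe 2 differed by -0.32, against 0.03 at probe 1. The 2 probes went furthest apart on the WT vehicle array.

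Myl2, the ventricular regulatory light chain, read 21083 (DOC/salt) and 19024 (vehicle) in CM-MRKO hearts and 15901 (DOC/salt) and 17284 (vehicle) in WT hearts. Its normalized difference between genotypes was 0.25 under DOC/salt and -0.15 under vehicle on the log2 scale, both under 1.5-fold. The essential light chain gene Myl3 read 21529 (DOC/salt) and 18471 (vehicle) in CM-MRKO and 16292 (DOC/salt) and 15274 (vehicle) in WT. Both light chain genes had their highest intensity in CM-MRKO DOC/salt, where the whole array was also brightest. Mybpc3, cardiac myosin-binding protein C, read 11045 and 9484 in CM-MRKO DOC/salt and vehicle, and 8529 and 6619 in WT DOC/salt and vehicle. Normalized, Myl3 and Mybpc3 were 0.29 and 0.26 higher in CM-MRKO than in WT under DOC/salt, and -0.11 and 0.00 apart under vehicle. Ttn, which encodes titin, differed by 0.11 in the CM-MRKO response, 0.12 in the WT response, 0.14 between genotypes under DOC/salt and 0.15 under vehicle, all higher in the group named first. The 2 probes of Myom1, the M-band crosslinker myomesin, differed by 0.18 and 0.26 between genotypes under DOC/salt, but by 0.45 and -0.23 under vehicle, so the direction against the WT vehicle pool depended on the probe.

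Among thin filament genes, Acta1 varied most. It read 6174 (DOC/salt) and 8179 (vehicle) in CM-MRKO hearts and 4204 (DOC/salt) and 4940 (vehicle) in WT hearts. The DOC/salt pool was below the vehicle pool in both genotypes, and each CM-MRKO pool was above the WT pool of the same treatment. The normalized differences were -0.48 for the CM-MRKO response and -0.73 for the WT response, or 1.40-fold and 1.66-fold lower. On the deposited values the DOC/salt to vehicle ratios were 0.755 in CM-MRKO and 0.851 in WT. Of 35 probes of the set detected on all arrays, Acta1 was the only one at least 1.2-fold lower in both responses, a limit chosen after the values were seen, where 1.94% of 7219 probes were. Over 6 other corrections and scalings its WT response lay between -0.94 and -0.23 and passed 1.5-fold in 4. Between genotypes Acta1 was 0.41 higher in CM-MRKO under DOC/salt and 0.16 higher under vehicle on the log2 scale.

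Acta2, the smooth muscle actin gene, moved with Acta1: its 4 probes differed by -0.61 to -0.35 in the CM-MRKO response and by -0.60 to -0.41 in the WT response. The summed intensity of 10 smooth muscle marker probes, 7 of them detected on all arrays, was 22067 and 24720 in CM-MRKO DOC/salt and vehicle, and 16577 and 15094 in WT DOC/salt and vehicle. Cnn1 and Tagln, defining smooth muscle genes, were not detected on any array, and Myh11, another, differed by 0.10 and -0.21 in the CM-MRKO and WT responses. Of the detected smooth muscle marker probes, 3 of 8 were above 0 in the CM-MRKO response (51.3% of all probes). In the WT response 1 of 7 was above 0 (45.4%). The part of smooth muscle RNA in the Acta1 values was not tested.

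Actc1, the main cardiac actin gene, was even, with 18226 and 18206 in CM-MRKO DOC/salt and vehicle, and 16464 and 13192 in WT DOC/salt and vehicle at its probe 1. Its 4 pairwise log2 differences lay between -0.06 and 0.00 at that probe and between -0.10 and 0.32 at probe 2. Tnnc1, the calcium-binding troponin, lay between -0.18 and 0.01. Tnni3, the inhibitory troponin, read 1282 and 956.3 in CM-MRKO DOC/salt and vehicle, and 988.7 and 642.6 in WT DOC/salt and vehicle. It was highest in CM-MRKO DOC/salt, by 0.36 over CM-MRKO vehicle and 0.31 over WT DOC/salt, both under 1.5-fold. Tpm1, alpha-tropomyosin, read 692.4 and 615.7 in CM-MRKO DOC/salt and vehicle, and 526.0 and 505.9 in WT DOC/salt and vehicle. Its WT response of -0.66 passed 1.5-fold only after normalization, since on the deposited values WT DOC/salt was the higher by 0.056. Tmod1, which caps the pointed end of thin filaments, differed by -0.28 between CM-MRKO and WT under DOC/salt and by -0.21 under vehicle on the log2 scale, or 0.45 under vehicle on the deposited values.

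**Figure D2:**
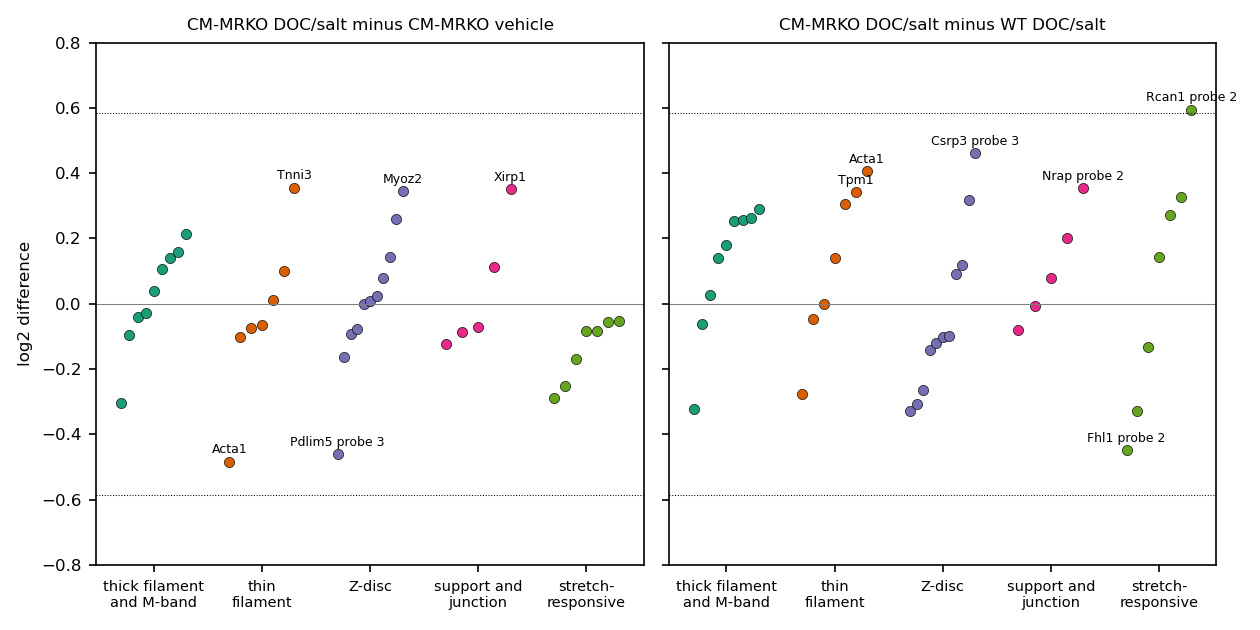
Log2 differences of normalized intensity for each detected probe, by role, in the 2 comparisons that do not use the WT vehicle array; dotted lines mark 1.5-fold, 1 pool per group. In CM-MRKO DOC/salt minus CM-MRKO vehicle (left) all probes lie inside the lines, with Acta1 lowest at -0.48; in CM-MRKO DOC/salt minus WT DOC/salt (right) only Rcan1 probe 2, at 0.59, lies outside. Pdlim5 probe 3, at -0.46 on the left, was detected on the CM-MRKO vehicle array alone.

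At the Z-disc, Actn2, the alpha-actinin that crosslinks thin filaments, read 12915 and 13172 in CM-MRKO DOC/salt and vehicle, and 11168 and 9144 in WT DOC/salt and vehicle. It differed by no more than 0.10 on the log2 scale, in either direction, in any pairwise comparison after normalization. Tcap, the titin cap telethonin, read 11908 and 10250 in CM-MRKO DOC/salt and vehicle, and 11919 and 7099 in WT DOC/salt and vehicle. Its DOC/salt pool was the higher in both genotypes, by 0.14 in CM-MRKO and 0.28 in WT. Myoz2, which encodes the calcineurin-binding protein calsarcin-1, read 3533 and 2674 in CM-MRKO DOC/salt and vehicle, and 2668 and 819.3 in WT DOC/salt and vehicle. Its log2 differences were 0.35 in the CM-MRKO response and 1.14 in the WT response, with the WT vehicle pool 1.12 below CM-MRKO vehicle. Myoz2 and Xirp1 were the 2 of 35 probes at least 1.2-fold higher in both responses, as were 1.39% of all probes. Myoz2 and Csrp3 probe 3 were the 2 of 35 at least 1.2-fold higher in CM-MRKO under both treatments, as were 1.18% of all. Only 1 Myoz2 probe was on the array, so its low WT vehicle value has no second probe.

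Csrp3, the muscle LIM protein known as a stretch sensor of the Z-disc, had 3 probes. Probe 1 read 20764 and 20535 in CM-MRKO DOC/salt and vehicle, and 19156 and 13194 in WT DOC/salt and vehicle. Probe 2 read 14004 and 13635 in CM-MRKO and 11952 and 11121 in WT under the same treatments. Probe 3 read 1541 and 1220 in CM-MRKO DOC/salt and vehicle, 1056 in WT DOC/salt and 220.0 in WT vehicle. In the WT response these probes differed by 0.21, -0.34 and 1.95 on the log2 scale, so 1 probe gave a difference past 1.5-fold and the others did not. In the CM-MRKO response they differed by -0.09, 0.00 and 0.26, and between genotypes under DOC/salt by -0.12, 0.12 and 0.46.

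Ldb3, which encodes the PDZ-LIM protein cypher, and Pdlim5, another PDZ-LIM gene, were highest in WT DOC/salt on the deposited scale. Ldb3 probe 1 read 1269 and 1169 in CM-MRKO DOC/salt and vehicle, and 1461 and 1088 in WT DOC/salt and vehicle. It was lower in CM-MRKO under both treatments, by -0.33 under DOC/salt and -0.56 under vehicle, and with Pdlim5 probe 1 made the 2 of 35 probes at least 1.2-fold lower in both (2.78% of all probes). On the deposited values the vehicle difference had the other sign, at 0.10 for Ldb3 probe 1 and 0.24 for Pdlim5 probe 1. Pdlim5 probe 1 read 2034 and 1849 in CM-MRKO DOC/salt and vehicle, and 2331 and 1564 in WT DOC/salt and vehicle. The 2 Pdlim5 probes detected on all arrays differed by -0.31 and -0.27 between CM-MRKO and WT under DOC/salt, and by -0.39 and -0.15 under vehicle. Myot, myotilin, was dim throughout, between 109.7 and 127.6 at its detected probe, and no pairwise difference exceeded 0.16 on the log2 scale in either direction.

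Genes of intermediate filaments, chaperones and junctional anchors stayed under 1.5-fold in every pairwise comparison. Des, the desmin gene, read 4733 and 4795 in CM-MRKO DOC/salt and vehicle, and 4459 and 4201 in WT DOC/salt and vehicle. Cryab, the alpha-B crystallin chaperone of desmin, read 5874 and 5885 in CM-MRKO and 5362 and 4023 in WT, and its normalized differences lay between -0.10 and -0.01. Xirp1, an actin-binding Xin repeat gene of the intercalated disc, read 212.0 and 169.3 in CM-MRKO DOC/salt and vehicle, and 175.8 and 120.7 in WT DOC/salt and vehicle. Xirp1 was higher under DOC/salt in both genotypes, by 0.35 in CM-MRKO and 0.37 in WT on the log2 scale, or about 1.27-fold and 1.29-fold. The 2 detected probes of Nrap, an anchor of terminal actin filaments, differed in size in the WT response, at -0.05 and -0.54, and read -0.07 and 0.11 in the CM-MRKO response.

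Stretch-responsive genes showed the widest split between probes. Ankrd1, the cardiac ankyrin repeat protein known for its induction by stretch and overload, read 5035 and 5636 at probe 1 in CM-MRKO DOC/salt and vehicle, and 4117 and 3114 in WT DOC/salt and vehicle. Probe 2 read 736.1 and 837.3 in CM-MRKO DOC/salt and vehicle, 560.9 in WT DOC/salt and an undetected 103.4 in WT vehicle. Both probes were lower under DOC/salt in CM-MRKO, by -0.25 and -0.29, and both were higher in CM-MRKO than in WT under DOC/salt, by 0.14 and 0.33. In the WT response probe 1 differed by -0.12, while probe 2 was undetected in WT vehicle and has only a bound. With WT vehicle placed at the dimmest value of any probe detected there, probe 2 was at least 4.13-fold higher in WT DOC/salt, the lowest bound over 7 corrections and scalings, and the main one gave 7.20-fold. Against WT vehicle, CM-MRKO vehicle was at least 6.06-fold higher by the lowest bound and 11-fold by the main one, where probe 1 was 0.27 higher on the log2 scale. The bounds were lowest without background correction. For Myh6 probe 2 the lowest bounds were at least 2.37-fold higher in WT DOC/salt and at least 2.04-fold higher in CM-MRKO vehicle, each against WT vehicle.

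Rcan1, which encodes a calcineurin inhibitor whose transcription follows calcineurin activity, had 2 probes detected on all arrays. Probe 1 read 1743 and 1755 in CM-MRKO DOC/salt and vehicle, and 1339 and 1190.4 in WT DOC/salt and vehicle. Probe 2 read 161.2 and 156.3 in CM-MRKO, and 114.8 and 120.5 in WT, under the same treatments. Both probes were higher in CM-MRKO than in WT under DOC/salt, by 0.27 at probe 1 and 0.59 at probe 2, and the value of probe 2 was 0.31 without background correction and 0.49 on the deposited values. In the WT response the probes differed by -0.45 and -0.61, against -0.08 and -0.06 in the CM-MRKO response, and under vehicle the genotypes differed by -0.09 and 0.04. The WT response of probe 2 passed 1.5-fold in 1 of 6 other corrections and scalings and was -0.07 on the deposited values, where probe 1 turned to 0.17. Over the 2 CM-MRKO arrays and WT DOC/salt, Acta1 and Rcan1 probe 2 were the 2 of 35 probes (5.71%) that spanned 1.5-fold or more, as did 2.09% of all probes. The median span over these 3 arrays was 0.28 for the 35 probes and 0.20 for all 7219 on the log2 scale.

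Fhl1 and Fhl2 are LIM-only proteins that bind titin, and Fhl1 differed from Rcan1 in direction between genotypes under DOC/salt. The 2 Fhl1 probes read 2581 and 2280 in CM-MRKO DOC/salt, 2751 and 2268 in CM-MRKO vehicle, 2994 and 2853 in WT DOC/salt, and 1980 and 1636 in WT vehicle. Both were lower in CM-MRKO than in WT under DOC/salt, by -0.33 and -0.45. Under vehicle they differed by -0.14 and -0.18 after normalization and by 0.48 and 0.47 on the deposited values, so that direction turned with the scaling. Fhl2 read 5468 and 5455 in CM-MRKO DOC/salt and vehicle, and 5432 and 2858 in WT DOC/salt and vehicle, which put the WT vehicle pool 0.40 below WT DOC/salt and 0.35 below CM-MRKO vehicle. Between genotypes under DOC/salt Fhl2 differed by -0.13 after normalization and by 0.009 on the deposited values.

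**Figure D3:**
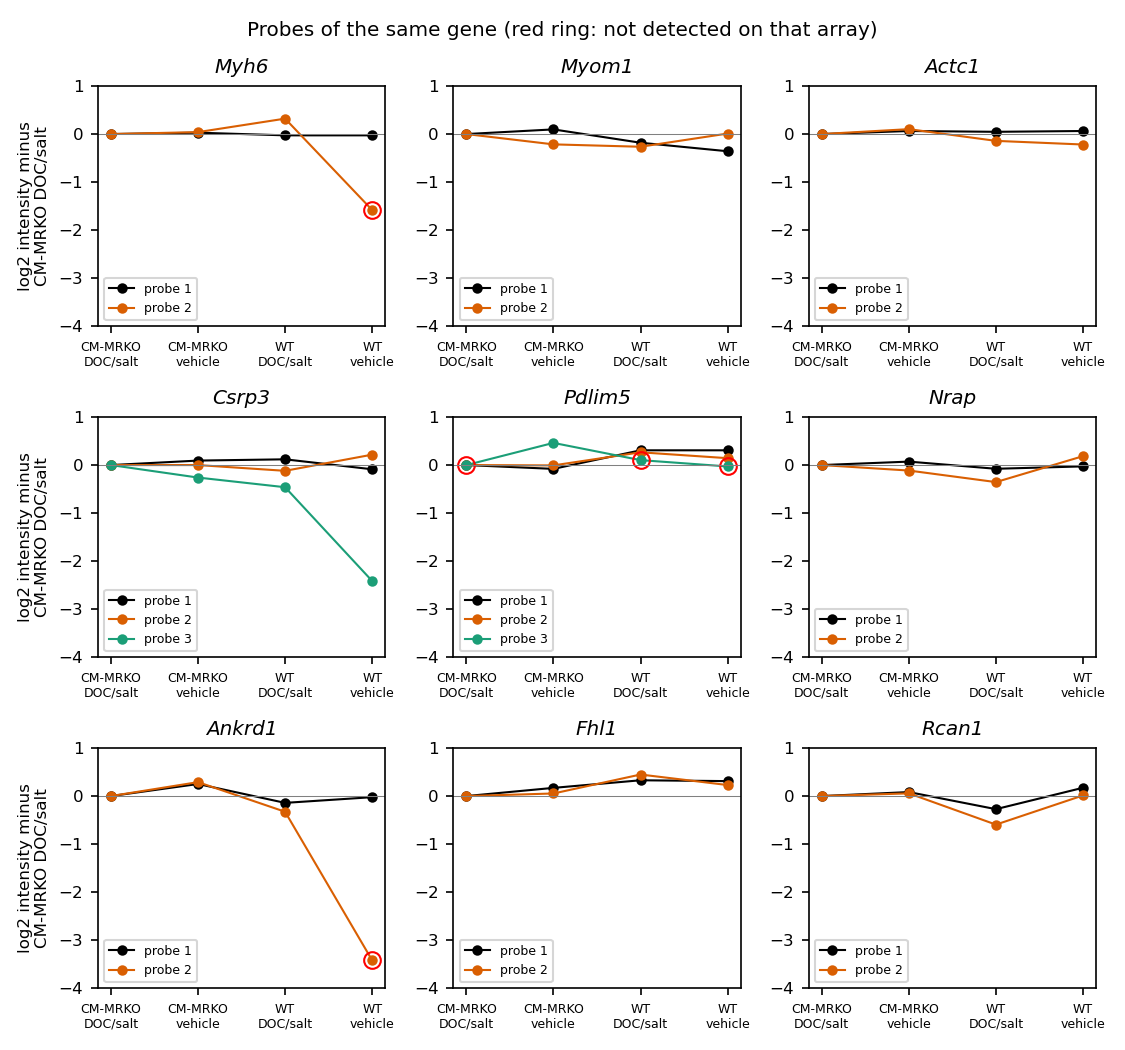
Normalized log2 intensity of each detected probe on the 4 arrays, relative to its own value on the CM-MRKO DOC/salt array, for the 9 genes with more than 1 detected probe; red rings mark arrays where a probe was not detected and lines join the values of a probe. Ankrd1 probe 2, Csrp3 probe 3 and Myh6 probe 2 lie at least 1.5-fold below the other arrays on the WT vehicle array.

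Comparing probes of one gene put a size on this. For every gene with at least 2 detected probes, the log2 differences of its brightest pair were subtracted from each other, and their SD was scaled to a single probe. This technical spread was 0.17 for the CM-MRKO response over 1254 genes and 0.18 between genotypes under DOC/salt over 1249 genes. It was 0.34 in the WT response and 0.33 between the vehicle pools. Probe pairs that differed by at least 2-fold made up 0.0797% and 0% in the first 2 comparisons, against 3.13% and 3.05% in those with WT vehicle and 4.7% for the difference of responses. The signs of the 2 probes matched for 55.6% to 56.8% of genes over the 5 comparisons, so a direction under 1.5-fold was often not shared by a second probe of the gene. For the genes studied, the brightest probe minus the low probe in the WT response was -3.21 for Ankrd1, -1.90 for Myh6 and -1.74 for Csrp3 on the log2 scale. The same differences were 0.04, 0.01 and -0.35 in the CM-MRKO response, and -0.18, 0.35 and -0.58 between genotypes under DOC/salt. Outside the set, Atp2a2, the calcium pump of the sarcoplasmic reticulum, showed the same split: 1 probe read 6466 and 6011 in CM-MRKO DOC/salt and vehicle, and 5402 and 222.0 in WT DOC/salt and vehicle, while the other read 21344 and 19264 in CM-MRKO and 19381 and 15158 in WT.

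In total 4 of the 39 probes (10.3%) lay at least 1.5-fold below every other array on the WT vehicle array, where 4.77% of all probes did, and 0 did on the CM-MRKO DOC/salt (0.0431%) or CM-MRKO vehicle array (0.0108%). On the WT DOC/salt array 1 did, Rcan1 probe 2 (0.108%). The summed intensity of cardiomyocyte markers outside the set was 62165 and 57002 in CM-MRKO DOC/salt and vehicle, and 53725 and 28886 in WT DOC/salt and vehicle. For fibroblast markers, 5 of 6 probes detected on all arrays, it was 6715, 6847, 6515 and 1721 in the same order of pools. Both sums were lowest in WT vehicle, as were those of smooth muscle, skeletal muscle, atrial, endothelial and red cell markers. The sums are of deposited intensities, and the cardiomyocyte sum includes the split Atp2a2 probes. The part of these cell types in the low probes was not tested. In the WT response 5 probes were higher (9.34% of all probes) and 3 lower (3.96%). The higher ones were the 4 probes low on the WT vehicle array and the dim Mybpc2 probe, for which the bound on the undetected side leaves no fold; the lower ones were Acta1, Tpm1 and Rcan1 probe 2. That balance turned with the scaling, to 9 higher and 0 lower with median scaling (31.5% of all probes in either direction). It was 4 and 8 when arrays were scaled on the probes detected on all of them (13.2%). The median of all probes was -0.04 in the main setting and 0.40 and -0.12 under these scalings. Between the vehicle pools 5 probes were higher in CM-MRKO (7.94%) and 0 lower (2.77%), again the 4 low probes with Mybpc2. When arrays were scaled on probes detected on all of them, 4 were higher and 3 lower (10.3% of all probes in either direction). The difference of responses, CM-MRKO minus WT, passed 1.5-fold at 8 of 39 probes (17.3% of all), 2 higher (6.6%) and 6 lower (10.7%). With only probes detected on every array of a comparison, the counts were 0 of 38 (0.565%) in the CM-MRKO response and 5 of 35 (9.61%) in the WT response. They were 1 of 38 (1.22%) between genotypes under DOC/salt, 2 of 35 (7.29%) under vehicle, and 4 of 35 (13.4%) for the difference of responses. The median over the set was -0.0538 in the CM-MRKO response (0.00661 over all probes), -0.0253 in the WT response (-0.0413), 0.11 between genotypes under DOC/salt (0.0107) and 0.00 under vehicle (-0.0421).

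**Figure D4:**
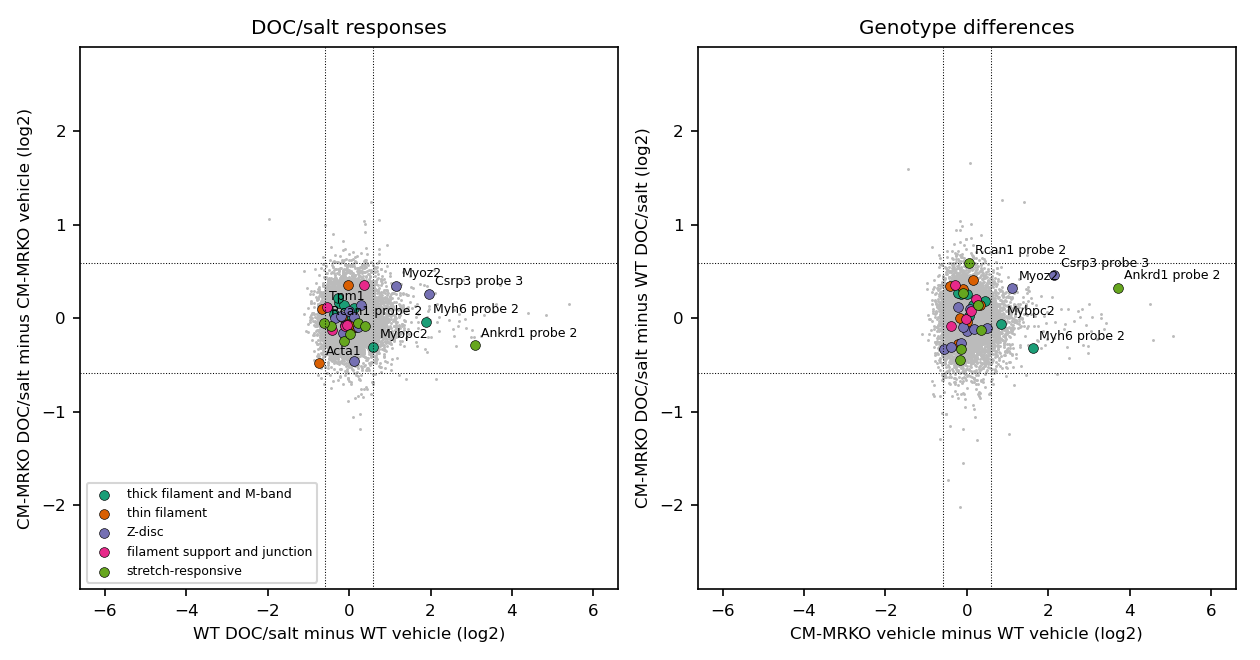
Each coloured point is a probe of the set and each grey point another detected probe; axes are log2 differences of normalized intensity and dotted lines mark 1.5-fold. Left, the CM-MRKO response against the WT response; right, the genotype difference under DOC/salt against that under vehicle. Coloured points past the vertical lines on the right of each panel are Ankrd1 probe 2, Csrp3 probe 3, Myh6 probe 2, Myoz2 and Mybpc2, all low on the WT vehicle array, and Acta1 is the lowest on the vertical axis of the left panel.

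By role, of 9 thick filament probes 7 were above 0 in CM-MRKO DOC/salt minus WT DOC/salt, with a median of 0.18, as were 4 of 7 thin filament (median 0.14), 4 of 10 Z-disc (-0.11), 3 of 5 support and junction (0.08) and 4 of 7 stretch-responsive probes (0.14). Of all probes 52% were above 0 in that comparison, and 51.3% in the CM-MRKO response. In the CM-MRKO response 0 of 7 stretch-responsive probes, from 4 genes, were above 0 (median -0.08), against 5 of 9 thick filament probes (median 0.04). On the deposited values Fhl1 probe 2, Fhl2 and Rcan1 probe 2 were above 0, at 0.008, 0.003 and 0.04, and the rest of these stretch-responsive probes below. With 1 pool per group these medians have no test.

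Other genes of the pathway were read from lists. None of the 7 further thick filament probes passed 1.5-fold in the CM-MRKO response. Between genotypes under DOC/salt 1 of 9 was higher in CM-MRKO (0.829% of all probes) and 2 were lower (1.14%). Myl4, the atrial light chain, was 0.63 higher in CM-MRKO (288.4 in CM-MRKO and 191.8 in WT). Mylk3, the cardiac myosin light chain kinase, differed by -0.83 at 1 of its 2 detected probes (133.9 in CM-MRKO and 175.2 in WT). The third was Unc45b, a myosin chaperone, at a probe detected in WT DOC/salt alone (109.1 in CM-MRKO, 126.1 in WT). Its CM-MRKO side was undetected, so that difference has no exact size. Of 27 further thin filament probes 1 passed in the CM-MRKO response (1.07% of all probes), an Acta2 probe, and 0 between genotypes under DOC/salt (1.97%). Among Z-disc genes 0 of 17 passed in the CM-MRKO response and 1 of 16 between genotypes under DOC/salt. This was Ankrd23, the third gene of the muscle ankyrin repeat family of Ankrd1 and Ankrd2, which read 1487 and 1328 in CM-MRKO DOC/salt and vehicle, and 908.6 and 787.9 in WT DOC/salt and vehicle. It was 0.65 higher in CM-MRKO under DOC/salt and 0.14 higher under vehicle on the log2 scale.

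None of 19 probes of muscle chaperones and intermediate filaments, 20 of the costamere and 14 of calcineurin and NFAT passed 1.5-fold in either of these 2 comparisons. In the WT response 3 of 20 costamere probes were higher (9.34% of all probes) and 1 was lower (3.96%), of Parva (parvin) at -0.65. The higher ones were of Dag1 (dystroglycan), Dtna (dystrobrevin) and Vcl (vinculin), all lowest on the WT vehicle array at 105.9, 239.4 and 144.5. Of 27 thin filament probes 1 was higher in the WT response and 4 were lower, and of the 7 other stretch and hypertrophy probes 0 were higher and 2 lower, with none above 0. These 2 were Nppb at -1.06 and Tnfrsf12a at -1.01. Thick filament, Z-disc and chaperone lists had 1 lower probe each (Myl4, Pdlim7 and Hspb2) and 0 higher. Of 8 muscle transcription factor probes 1 was higher and 0 were lower in the WT response. Another detected Dtna probe read 525.2 in WT DOC/salt and 427.8 in WT vehicle, a normalized difference of -0.39. Of the muscle transcription factors 1 of 9 probes, of Gata4, passed in the CM-MRKO response (1.07% of all probes) and between genotypes under DOC/salt (1.97%). It read 141.2 in CM-MRKO DOC/salt and undetected intensities of 107.8, 92.5 and 100.2 in CM-MRKO vehicle, WT DOC/salt and WT vehicle. Detection limits on CM-MRKO vehicle and WT DOC/salt were 119.8 and 113.6. With 1 side undetected, neither difference has an exact size, and a true 1.5-fold is not established. Among 7 other probes of stretch and hypertrophy genes 0 passed in the CM-MRKO response (1.07% of all probes). Under DOC/salt 2 (Nppb and Tnfrsf12a) were higher in CM-MRKO than in WT, by 1.01 and 0.99 (0.829% of all probes). The summed intensity of 5 atrial marker probes, 3 of them detected on no array, was 20461 and 18851 in CM-MRKO DOC/salt and vehicle, and 12415 and 11813 in WT DOC/salt and vehicle. Myl4 is itself 1 of these 5 markers, and so is Nppa, which also belongs to the stretch and hypertrophy list. The sum is therefore not independent of Myl4 or of that list. Myl4 was dim beside the sum, which rests mostly on 1 other detected probe. The part of atrial RNA in the values of Myl4 and Nppb was not tested.

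An additive fit of treatment and genotype over all 4 arrays (limma, 1 residual degree of freedom, Benjamini-Hochberg over 9272 probes) called none of the 39 probes at an adjusted p under 0.05 for either factor, where it called 0% of all probes for treatment and 0.0108% for genotype. The smallest adjusted p-values in the set by limma were 0.245 and 0.174. At an unadjusted p under 0.05 the fit listed 5 probes for treatment (5.23% of all probes) and 5 for genotype (4.70%). The 4 probes low on the WT vehicle array were in both lists, with Acta1 for treatment and Ldb3 for genotype, and a single low array enters both factors of this fit.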

How the data were processed

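Illumina single-channel bead arrays measured RNA from 30 mg of heart tissue per the labels. Values are linear bead intensity as deposited by the authors, with no background removed. The submitters' processing notes name Partek, without a version; what it was used for is not stated in the labels. Another deposited table was set aside: none of its 4 value columns carries a name found in the labels. Groups come from the source name. The treatment protocol, which names vehicle for all 4 samples, was used for the surgery alone. Of the 25697 probes, 23978 had 1 platform gene symbol, 0 had several and 1719 were unnamed here.

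With limma 3.58.1 (R 4.3.3), intensities were corrected by normexp (offset 16), quantile normalized over the 4 arrays and put on the log2 scale. Detection used 1339 receptor probes at 0.01, with limits at intensities of 108.7 to 121.7. Calls are differences of at least 1.5-fold at probes detected on at least 1 array of a comparison. Scripts were tested on simulated data. The members and lists were chosen with earlier results of these data known. The rule for named genes covers every member and, from each list, at most 4 genes past 1.5-fold per comparison. Other settings tried were the background correction, the scaling, the detection filter and 1 probe per gene.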

Additional observations from a re-analysis of the deposited data

Results flagged for a closer look

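For 6 probes the normalized DOC/salt response had opposite signs in the 2 genotypes and the difference of responses, CM-MRKO minus WT, passed 1.5-fold on the log2 scale. With 1 pool per group the difference was not tested. It was 0.76 for Tpm1, with responses of 0.10 in CM-MRKO and -0.66 in WT, and 0.65 for Nrap probe 2, with 0.11 in CM-MRKO and -0.54 in WT. On the deposited values these differences were 0.11 for Tpm1 and 0.04 for Nrap probe 2, with both responses above 0, and with median scaling they were 0.24 and 0.16. The other 4 probes were undetected on the WT vehicle array, so their WT response is only bounded and the fitted values have no exact size or rank. These values were -3.38 for Ankrd1 probe 2 and -1.94 for Myh6 probe 2. They were -0.89 for Mybpc2, whose bound leaves no WT fold, and -0.59 for Pdlim5 probe 3, which was undetected on both WT arrays and so has no WT direction.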

How the results depend on the processing

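No paired analysis was possible because each group has 1 pooled array. The CM-MRKO response gave 0 probes past 1.5-fold under all 11 other settings run, where 0.0999% to 2.3% of all probes passed under the planned ones. The 11 include the setting without the WT vehicle array, added after seeing the data. Between genotypes under DOC/salt the count of 1 (1.97% of all probes) was 0 without background correction (0.331%), with an offset of 50 (0.464%), on deposited values (0.497%) and with the brightest probe of each gene (1.79%). It was 1 without the WT vehicle array. In the WT response the count of 8 (13.3% of all probes) was 14 on deposited values (26.4%), 5 with probes detected on both arrays (9.61%) and 4 with the brightest probe of each gene (12.9%). Between the vehicle pools the count of 5 (10.7%) was 12 on deposited values (28.7%), 11 with median scaling (27.7%), 2 with probes detected on both arrays (7.29%) and 2 with the brightest probe (9.91%). For the difference of responses the count of 8 (17.3%) was 4 with probes detected on all arrays (13.4%) and 3 with the brightest probe (16.8%). Its split of 2 higher and 6 lower was 0 and 10 with median scaling (30.8% of all probes in either direction). It was 6 and 4 with scaling to detected probes (19.1%). The additive fit called 0 probes in the main setting for both factors. For treatment it called 4 with an offset of 50 (0.593% of all probes), 2 on deposited values (0.313%), 2 with median scaling (0.453%) and 2 with scaling to detected probes (0.421%). It called 1 with probes detected on all arrays (0.402%) and 1 with no detection filter (0.101%). For genotype it called 3 (0.593%), 3 (0.226%), 2 (0.345%), 2 (0.41%), 1 (0.36%) and 2 (0.101%) under these settings and 1 without background correction (0.0216%). Every probe so called was Ankrd1 probe 2, Csrp3 probe 3, Myh6 probe 2 or Myoz2. These 4 kept their direction and stayed past 1.5-fold under all 6 other corrections and scalings in each comparison where they were called. The WT response of Tpm1, -0.66, reversed to 0.056 on deposited values; the cause was not tested. The bounds under 7 settings were added after seeing the data. Dim probes such as Mybpc2 and Rcan1 probe 2 lie close to background, which limits their folds.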
